A study of Mus musculus with 33 samples.

Results

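Cycling cells of any lineage are described here: 69 of the 1536 single cells in the authors' deposited table of the mouse hippocampal niche (4.49%, exact binomial 95% interval 3.51 to 5.65). A cell was a member when the transcripts of 10 cell cycle genes, Mki67, Top2a, Ccna2, Ccnb1, Pbk, Racgap1, Cdk1, Birc5, Ube2c and Tpx2, summed to 2 or more in that table, in which every cell had been reduced to about the same number of transcripts (1407 to 1498). The other 1467 cells of the table served as the comparison. Levels came from the same wells in the count files of the single libraries, where the 69 members held 535363 transcripts and the other cells 9227711. The members were thus chosen by their measured transcript counts of these 10 genes, which were not tested.

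The niche libraries were made from hippocampus of wild-type C57BL/6 mice after neurons had been depleted, from live single cells negative for antibodies to GluR1, a glutamate receptor subunit, and Cd24, a surface protein of neuroblasts among other cells. They fall into 5 numbered experiments, beside which stand 1 plate from old mice (over 12 months) and 1 plate of sorted GFP+ cells from Nestin-GFP animals. All samples carry the labels wild-type and C57BL/6, the Nestin-GFP library included, and the sources used here give no age for the other mice. The experiment was the replicate. The labels do not say how many mice an experiment holds, so the p-values measure the spread between experiments, which may be technical.

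A dividing cell copies its DNA in S phase with the replication machinery, such as the Mcm helicase and its sliding clamp Pcna, and then condenses and separates its chromosomes with kinetochore, spindle and cytokinesis proteins. D-type cyclins act before this, carrying cells through G1 into the cycle. In the adult dentate gyrus, radial stem cells divide rarely, whereas intermediate progenitors, marked by the T-box factor Eomes (Tbr2), divide several times before their progeny become neuroblasts. Oligodendrocyte precursors, marked by the receptor Pdgfra, also divide in adult brain, and microglia, marked by the receptor Csf1r, renew themselves by division. Hopx marks astrocytes and radial stem cells. Mature oligodendrocytes are post-mitotic.

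Many genes of the late cell cycle share a promoter element called CHR, with the core TTTGAA, together with CCAAT boxes. Many replication genes share E2F sites, here searched as TTTGGCGC or TTTCCCGC. In RefSeq promoters of GRCm38.p6, from 250 bases before to 50 bases after the start and on both strands, TTTGAA was found in 36 of 46 promoters of the mitosis genes listed for this report (78.3%; 43 of the 52 genes matched). It was found in 4 of 36 promoters of the replication list (11.1%) and in 17.9% of all 32851 promoters. The E2F letters were found in 10 of 36 promoters of the replication list (27.8%), in 3 of 46 of the mitosis list (6.52%) and in 1.56% of all promoters. CCAAT was found in 76.1%, 58.3% and 37.4% of the mitosis, replication and all promoters. A match of letters is a description and not a measured binding site. The following 100-base windows, from 70 bases before to 30 bases after the start, are shown because these genes are among the members' genes described below or stand in the same lists; capitals mark the TTTGAA element in the mitosis genes Cdc20 (chr4:118437314-118437413, minus strand), Cdca8 (chr4:124936888-124936987, minus strand), Cenpa (chr5:30666816-30666915, plus strand), Kif23 (chr9:61946770-61946869, minus strand) and Aspm (chr1:139454703-139454802, plus strand), and the E2F letters in the helicase genes Mcm3 (chr1:20820283-20820382, minus strand; the match lies on the opposite strand) and Mcm6 (chr1:128359676-128359775, minus strand).
Cdc20: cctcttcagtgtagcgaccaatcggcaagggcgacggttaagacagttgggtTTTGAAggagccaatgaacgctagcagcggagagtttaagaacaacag
Cdca8: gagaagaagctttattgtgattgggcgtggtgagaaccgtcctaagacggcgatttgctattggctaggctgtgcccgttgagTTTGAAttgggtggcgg
Cenpa: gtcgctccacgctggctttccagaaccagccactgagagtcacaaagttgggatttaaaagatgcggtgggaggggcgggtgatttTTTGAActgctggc
Kif23: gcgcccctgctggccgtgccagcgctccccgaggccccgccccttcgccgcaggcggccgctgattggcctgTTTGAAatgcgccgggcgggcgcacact
Aspm: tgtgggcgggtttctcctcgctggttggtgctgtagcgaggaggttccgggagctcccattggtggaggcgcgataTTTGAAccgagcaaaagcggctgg
Mcm3: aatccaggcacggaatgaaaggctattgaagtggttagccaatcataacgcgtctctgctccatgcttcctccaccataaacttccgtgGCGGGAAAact
Mcm6: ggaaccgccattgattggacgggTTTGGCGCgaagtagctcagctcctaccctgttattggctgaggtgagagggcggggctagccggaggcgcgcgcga

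The members came from 22 of the 32 libraries with cells in the table. Experiment 1 held 10 members of 377 cells (2.65%), experiment 2 held 16 of 343 (4.66%) and experiment 3 held 4 of 127 (3.15%). Experiment 4 held 22 of 136 (16.2%; exact binomial 95% interval 10.4 to 23.5) and experiment 5 held 5 of 126 (3.97%). The old library held 7 of 128 (5.47%; 2.23 to 10.9) and the Nestin-GFP library 5 of 299 (1.67%; 0.545 to 3.86). Experiment 4 thus gave the most members, and its interval does not overlap those of experiments 1, 2, 3 and 5. Intervals cover counting error only. The old library's interval overlaps those of the 5 experiments, and with 1 library no test of age was possible.

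**Figure D1:**
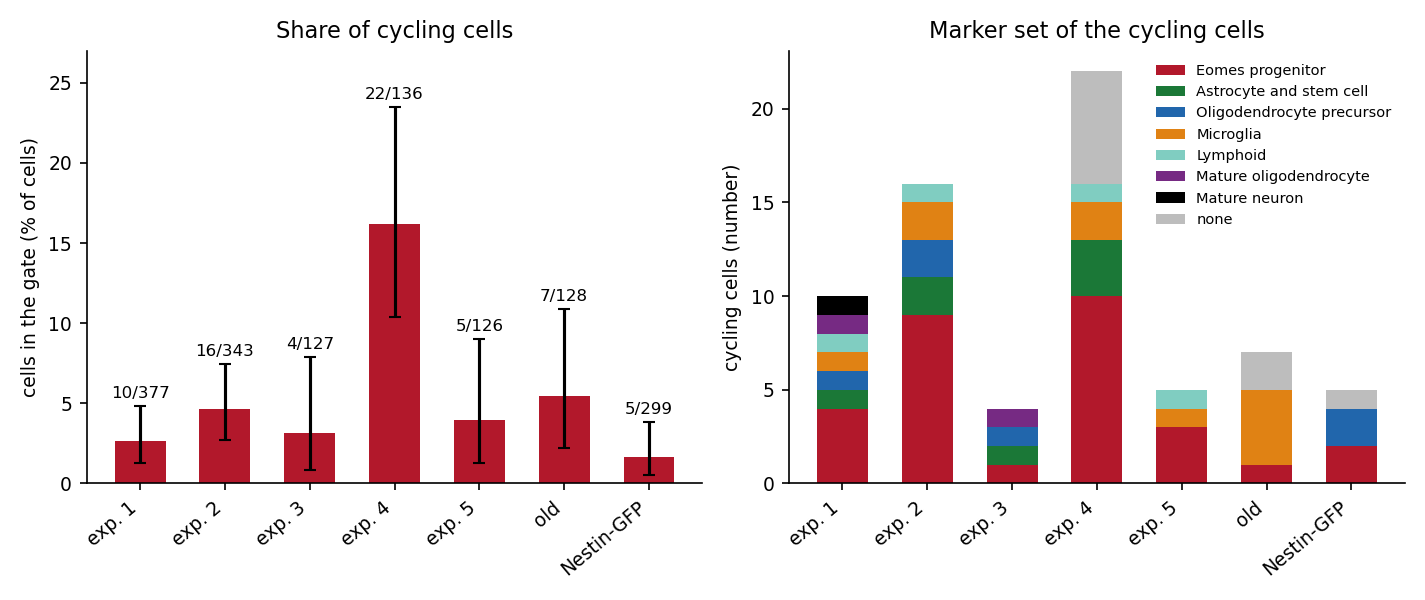
Left, share of cells in the cell cycle gate (% of the cells of the deposited table) in experiments 1 to 5, the old library and the Nestin-GFP library, with exact binomial 95% intervals and the number of cycling cells over all cells above each bar. Right, number of cycling cells per group, coloured by the marker set each cell held. Experiment 4 stands at 16.2% against 2.65% to 4.66% in the other 4 experiments, and the Eomes progenitor set is the largest coloured share in experiments 1, 2, 4 and 5.

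The sum over the 10 gate genes had a median of 5 in the members, from 2 to 27, and a member held a median of 3 different gate genes, from 1 to 9. Mki67, a chromosome surface protein of proliferating cells, was found in 37 of the 69 members and Racgap1, a cytokinesis regulator, in 35. Ube2c, a ubiquitin-conjugating enzyme of mitotic exit, and Top2a, the topoisomerase that untangles chromosomes, were each found in 31, whereas the mitotic cyclin Ccnb1 was found in 17 and Birc5 in 16. Of the members, 55 held at least 2 different gate genes and 14 held 1 gene only, 11 of them with a sum of exactly 2. Just inside the threshold were 20 cells with a sum of 2. Just outside were 157 cells with a sum of 1, and 1310 cells had none.

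Since the table is a reduced draw of each well's transcripts, the transcripts of the count files that are not in it were used as a second look at the same wells, given as a description. These held-out transcripts of the gate genes made up 8220 CPM (counts per 1000000 transcripts) in the 19 cells with a sum of 10 or more, 5970 CPM in the 14 cells with 6 to 9, and 2120 CPM in the 16 cells with 3 to 5. The 20 cells at the threshold held 1750 CPM, against 227 CPM in the cells with a sum of 1 and 90.2 CPM in those with 0. Of the 173 held-out gate transcripts of the cells at the threshold, 79 and 50 lay in 2 cells of experiment 4. Without these 2 cells the remaining 18 held 714 CPM, and the value of the cells at the threshold thus rests on few wells. Only 9 of these 20 cells (45%) held any such transcript, close to the 42.7% of the cells with a sum of 1, and in all 56 of the 69 members (81.2%) held one, against 25.6% of the other cells.

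Replication and mitosis transcripts outside the gate were found together in 61 of the 69 members of the table, replication transcripts alone in 4 and mitosis transcripts alone in 4. A member held a median of 11 mitosis transcripts (0 to 50) and 4 replication transcripts (0 to 30). More mitosis than replication transcripts were held by 39 members, more replication than mitosis transcripts by 24, and equal numbers by 6. In the table, mitosis transcripts stood at 2330 CPM in cells with a gate sum of 2 and at 17500 CPM in those with 10 or more, while replication transcripts stood at 2090 CPM and 7600 CPM. Members with few gate transcripts thus also held few other cell cycle transcripts. These genes move with the gate genes in any dividing cell, so their level describes the choice of the cells and is no independent support for it.

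Of the 4 lineage markers, Eomes was carried by the most members. In the table it was found in 31 of 69 members (44.9%), Csf1r in 15 (21.7%), Pdgfra in 14 (20.3%) and Hopx in 8 (11.6%). Among the other cells the shares were 8.79% for Eomes, 26.9% for Csf1r, 30.4% for Pdgfra and 20.9% for Hopx. Of the members, 34 carried exactly 1 of the 4 markers, 20 of them Eomes, 7 Csf1r, 6 Pdgfra and 1 Hopx. A further 20 carried none, and 15 carried 2 or more.

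Eomes was found in 40% of cycling and 1.63% of other cells in experiment 1, in 68.8% and 20.5% in experiment 2, and in 25% and 10.6% in experiment 3. In experiment 4 the shares were 36.4% and 19.3%, and in experiment 5 they were 60% and 1.65%. The cycling cells were higher in each of the 5 experiments, and they were higher in the old library (28.6% against 8.26%) and the Nestin-GFP library (40% against 3.06%) as well. The mean difference was 35.3 percentage points ± 19.2 (SD, n = 5 experiments; two-sided exact permutation test, p = 0.063, adjusted over the 4 markers 0.25). With 5 experiments this is the smallest p this test can give.

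Pdgfra, Hopx and Csf1r were carried by fewer cycling than other cells on average, but not in every experiment. The mean difference was -7.29 points ± 13.3 for Pdgfra (SD, n = 5; exact permutation p = 0.3125), -10.4 ± 12.1 for Hopx (exact permutation p = 0.125, adjusted 0.25) and -15.3 ± 15.3 for Csf1r (exact permutation p = 0.1875, adjusted 0.25). Cycling cells were higher in 2 of 5 experiments for Pdgfra and in 1 of 5 for Hopx and for Csf1r. For Hopx the difference was 3.46 points ± 20.3 when the full count files were used in place of the table of equal depth (exact permutation p = 0.8125). None of the 4 markers passed the test.

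A single transcript of a marker was also found at a low share in cells of other types. At a median of 1478 to 1486 transcripts per cell in the table, Eomes was found in 2.64% of the non-cycling cells with oligodendrocyte precursor markers, in 5.07% of those with astrocyte and stem cell markers and in 4.75% of those with microglia markers. Free RNA may reach any well, and its part was not tested. With 2 or more transcripts of the marker, 18 members (26.1%) carried Eomes, against 3.07% of the other cells. Pdgfra at that level was carried by 6 members, Hopx by 1 and Csf1r by 9. The highest count in a single member was 6 transcripts for Eomes and 12 for Pdgfra.

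**Figure D2:**
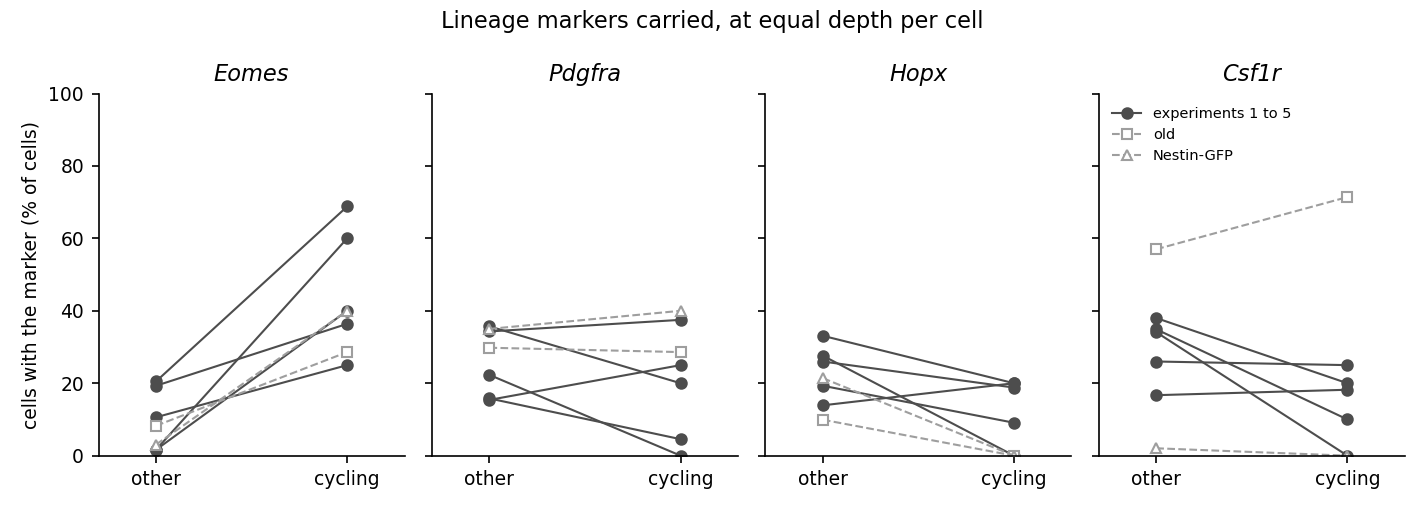
Share of cells with at least 1 transcript of Eomes, Pdgfra, Hopx or Csf1r in the table of equal depth (% of cells), in other and in cycling cells. Each line joins both cell groups of 1 experiment (filled circles), of the old library (square) or of the Nestin-GFP library (triangle). The lines for Eomes rise in every experiment, from 1.63% to 20.5% up to 25% to 68.8%, and those for the other 3 markers cross.

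The levels of the 4 markers in CPM were then taken from the full count files. Eomes stood at 613, 949, 505 and 687 CPM in the cycling cells of experiments 1, 2, 4 and 5, which entered the test with at least 5 cycling cells each, and at 27, 289, 269 and 8.16 CPM in the other cells. All 4 cycling values lie above all 4 others. This only describes the gene, since the share of such genes among all those tested was not counted. The log2 fold change was 2.69 ± 0.51 (SE; edgeR quasi-likelihood test, Benjamini-Hochberg adjusted p = 0.00064). Pdgfra fell by 2.24 ± 0.49 (adjusted p = 0.0025 by edgeR), Hopx by 1.28 ± 0.37 (adjusted p = 0.021 by edgeR) and Csf1r by 2.02 ± 0.34 (adjusted p = 0.00022 by edgeR), all on the log2 scale. Pdgfra reached 716 CPM in the cycling cells of experiment 2 and 0 CPM in those of experiment 5, whereas in the Nestin-GFP library it stood at 2500 CPM in cycling and 1030 CPM in other cells. Without the experiment as a block, the calls of Eomes, Pdgfra, Hopx and Csf1r were lost, and that of Hopx was also lost when experiment 2 or experiment 5 was left out. Eomes lay below the count filter's cutoff of 33.3 CPM in the other cells of experiments 1 and 5. Pdgfra lay below it in the cycling cells of experiments 4 and 5. Eomes thus could not have entered the test through the other cells alone, nor Pdgfra through the cycling cells alone. Both of these tests are a description.

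Each cell was next put with the marker set of which it held the most different genes in the table. By this rule 30 members fell to the Eomes progenitor set, 10 to microglia, 7 to astrocytes and stem cells, 6 to oligodendrocyte precursors, 4 to lymphoid cells, 2 to mature oligodendrocytes and 1 to mature neurons, and 9 to none. Of the 185 cells of the Eomes progenitor set 16.2% were cycling (exact binomial 95% interval 11.2 to 22.3). The share was 3.07% of 326 microglia-set cells (1.48 to 5.57), 2.05% of 342 astrocyte and stem cell-set cells (0.827 to 4.17) and 1.73% of 347 precursor-set cells (0.637 to 3.73). Those 3 shares overlap in their intervals with the 1.2% of 167 cells of the mature oligodendrocyte set (0.145 to 4.26), a type known to be post-mitotic. That share rests on 2 wells. One is of experiment 3, with 264 genes detected and gate transcripts of 1 gene only, and the other is of experiment 1, with a gate sum of 25, 5 Eomes and 32 Ccnd2 counts, and neither held Olig2. In the lymphoid set 4 of 32 cells were cycling (12.5%; 3.51 to 29). No member fell to the endothelial set (0 of 38 cells) or the mural and fibroblast set (0 of 18 cells).

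The Eomes progenitor set held the higher share of cycling cells in every group. In experiments 1 to 5 the share was 40%, 11.4%, 6.67%, 22.2% and 50% of the set, against 1.63%, 2.65%, 2.68%, 13.2% and 1.67% of the remaining cells. It was 9.09% against 5.13% in the old library and 10.5% against 1.07% in the Nestin-GFP library. Some of these shares rest on few cells: 1 of 15 in experiment 3, 3 of 6 in experiment 5 and 1 of 11 in the old library. Some single sets were as high or higher, such as the precursor set of experiment 3 (1 of 15) and the lymphoid set of experiment 4 (1 of 3). Cells without a set were higher in experiment 4 (6 of 19) and in the old library (2 of 9). The excess of cycling cells in experiment 4 was thus found outside the Eomes set too, where 12 of 91 cells were members, 6 of them without a set. Of the 7 old members 4 fell to the microglia set and 1 to the Eomes progenitor set, and of the 5 Nestin-GFP members 2 fell to the Eomes progenitor set and 2 to the precursor set.

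Members of different sets differed in how strongly they held the gate. The gate sum had a median of 9 in the 30 Eomes-set members, of whom 28 held at least 2 different gate genes, and of 8 in the 7 astrocyte and stem cell-set members, all with at least 2. It had a median of 5 in the 6 precursor-set members, 2.5 in the 10 microglia-set members and 2 in the 4 lymphoid-set members. In the microglia set 5 of the 10 members stood exactly at the threshold, 5 held a single gate gene, and 5 had a held-out gate transcript in their well. These members held a median of 2230 transcripts per well, against 6725 in the Eomes set, so fewer were left to be held out. Their held-out gate transcripts made up 4800 CPM, against 4830 CPM in the Eomes set, but 61 of the 76 lay in 1 well. Of the lymphoid-set members 3 stood at the threshold. The cycling state of the microglia-set and lymphoid-set members thus rests on fewer transcripts than that of the Eomes set.

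Markers of more than 1 type were common in single wells. At least 2 markers of each of 2 sets were held by 42 of 69 members (60.9%) and by 947 of 1467 other cells (64.6%), so the members did not hold more of such wells. The summed level of the 8 Eomes-set markers ranged over the 7 groups from 2370 to 5330 CPM in cycling and from 234 to 3520 CPM in other cells. That of the 10 microglia markers ranged from 29.1 to 10800 CPM in cycling and from 94.8 to 14300 CPM in other cells, with the highest value of both in the old library. Of the 8 mural and fibroblast markers, 5 were detected in members, and Rgs5, Kcnj8 and Pdgfrb were at 0 in all members. The summed level of the 8 ranged from 0 to 150 CPM in cycling and from 19.9 to 1790 CPM in other cells. No doublet caller was run, and the part of doublets in the results was not tested. 1 member of experiment 3 stood apart with 264 genes detected, against 1032 or more in every other member. Its gate sum of 4 came from Ube2c alone, and its experiment did not enter the gene tests.

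Transcripts per cell did not differ beyond the spread between experiments. The median was 5495 transcripts in members and 5116 in other cells. The log2 ratio of the medians was 0.41, -0.25, 0.17, -1.18 and 0.18 in experiments 1 to 5, with a mean of -0.13 ± 0.632 (SD, n = 5; two-sided exact permutation test, p = 0.8125). Experiment 4 stood lowest, with a median of 6098 transcripts in members and 13829 in other cells, and without it the mean was 0.13. Relative to the spike-in RNA of each well the ratio was 0.37 ± 0.183, higher in cycling cells in 5 of 5 experiments (exact permutation p = 0.063, the smallest possible). At equal depth, members had 44.4 ± 51.9 more genes detected per cell (SD, n = 5; exact permutation p = 0.1875), higher in 4 of 5 experiments.

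Over all cells, members differed from the others in cell cycle genes, which were higher, and in genes of glial homeostasis, which were lower. The 53 cycling and 929 other cells of experiments 1, 2, 4 and 5 were summed per experiment and compared within experiments. Of 6967 genes tested, 440 were higher in cycling cells (6.32%) and 634 were lower (9.1%) at an edgeR adjusted p under 0.05. The 5 genes raised most by the rule for named genes include Casc5, a kinetochore scaffold also called Knl1 (log2 fold change 7.77 ± 0.63, SE). They also include Nek2, a centrosome kinase (7.48 ± 0.67), and Cdc20, the activator of the anaphase-promoting complex (6.88 ± 0.55). The genes lowered most include Bcas1, a gene of the oligodendrocyte lineage (-5.62 ± 0.76), and Aqp4, the water channel of astrocytes (-4.5 ± 0.54). Casc5, Nek2 and Cdc20 lay below the count filter's cutoff of 33.3 CPM in every sum of other cells. Bcas1 and Aqp4 lay below it in every sum of cycling cells. These genes passed the filter only through the cells in which they are high, so their fold changes are a description. The lineages are unequally represented in both cell groups, so this comparison mixes lineage with cycling.

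Cdc20 (chr4:118432901-118437352) stood at 228, 216, 150 and 40.4 CPM in the cycling cells of experiments 1, 2, 4 and 5 and at 1.28, 0.835, 2.57 and 0 CPM in the other cells. Cdca8, borealin of the chromosomal passenger complex (chr4:124918465-124939311), stood at 245, 276, 312 and 162 CPM against 2.57, 5.43, 6.43 and 0 CPM. For both genes every cycling value exceeds every other value, and the sequences of their promoters are those shown above. How many of all 6967 genes tested also lack overlap was not counted. Here and below, a lack of overlap only describes the named gene. The log2 fold change of Cdca8 was 5.87 ± 0.42 (edgeR adjusted p = 5.3e-09). Both genes lay below the count filter's cutoff of 33.3 CPM in every sum of other cells. Their levels and this test thus describe the choice of the cells. In the Nestin-GFP library Cdca8 stood at 87.4 CPM in the cycling and 0.524 CPM in the other cells. Cdc20 was at 0 in the cycling cells of both the old and the Nestin-GFP library.

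The list of mitosis genes outside the gate had 46 of 52 members tested, of which 44 rose. Of the 46, 3 reached the count filter's cutoff of 33.3 CPM in every sum of other cells and 42 only in every sum of cycling cells. Those 42 could not have entered the test through the other cells alone, so the count describes the choice of cells and supports nothing. Beside Cdc20 and Cdca8 the list holds Cdca3, a mitotic entry factor (6.47 ± 0.43), and Kif23, a kinesin of the midbody (5.99 ± 0.52). It also holds Aspm, a spindle pole protein (5.95 ± 0.52), and Spc25, a kinetochore subunit (5.97 ± 0.52). All 32 replication genes tested, of 37 listed, rose, and 26 of them reached the cutoff in every cycling sum but not in every sum of other cells. Among them was Rrm2, a subunit of ribonucleotide reductase, from 23.5 ± 29.5 to 465 ± 219 CPM (SD, n = 4) and Pcna from 250 ± 45.4 to 1090 ± 382 CPM. Of 24 chromatin genes tested 21 rose, with a median of 1.7 against -0.11 over all genes, led by Hmgb2, a DNA-bending protein. Hmgb2 stood at 1140, 1650, 1160 and 849 CPM in cycling cells and at 29.5, 76.8, 125 and 38.1 CPM in the others, with no overlap. Of the 24 chromatin genes 19 had reached the cutoff in every sum of other cells too. Hmgb2 was not among these 19, with 29.5 CPM in the other cells of experiment 1.

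G1 genes were divided. Over all genes tested 6.32% were higher and 9.1% lower in cycling cells. Of 13 tested, 6 rose: Ccnd2, the D-type cyclin; Cdk4, its kinase; Cdk2, the kinase of S-phase entry; Rbl1, a pocket protein that represses E2F genes; and Cdkn2c and Cdkn2d, inhibitors of Cdk4. Btg2, an antiproliferative gene, fell. Of the 13 genes, 5 reached the count filter's cutoff in every cycling sum but not in every sum of other cells. Ccnd2 stood at 1590, 1000, 1910 and 2430 CPM in cycling cells against 55.9, 318, 425 and 40.8 CPM in the others (log2 fold change 3.37 ± 0.5, edgeR adjusted p = 4.4e-05), and the groups do not overlap. Of 22 regulators of neural progenitors tested, 5 rose (22.7%), among them Hes6 and Pax6, and 3 fell (13.6%), Id3, Id4 and Hes5, while 3 rose and 2 fell without the experiment as a block. The lowered share is near that of all genes. Of the 22 genes, 6 reached the cutoff in every cycling sum but not in every sum of other cells. Id4, an inhibitor of proneural factors known for quiescent stem cells, had a log2 fold change of -1.68 ± 0.41.

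Genes of glial homeostasis and of the immediate early response were lower in members. For the counts that follow, the shares over all genes tested were 6.32% higher and 9.1% lower. Of 19 homeostasis genes tested 13 fell and none rose, with a median of -1.82; Apoe, the lipid carrier of astrocytes and microglia, had a log2 fold change of -2.39 ± 0.39. Of 17 immediate early and dissociation response genes tested, 13 fell, with a median of -1.5, among them Fos (-1.51 ± 0.4), Atf3 and the heat shock gene Hspa1a. Without the experiment as a block 3 of the 17 passed, Hspa1a, Hspa1b and Fosb. All 19 homeostasis and all 17 response genes reached the count filter's cutoff of 33.3 CPM in every sum of other cells. In every cycling sum 15 and 11 of them did. The rest could not have entered the test through the cycling sums alone, so their fall is a description. In RNA splicing and binding genes 11 of 28 rose and none fell, led by Ran, the GTPase of nuclear transport, and 5 rose without the block. Of 12 glycolysis genes 4 fell and none rose, and 9 of the 12 reached the cutoff in every cycling sum. Of 38 genes of oxidative phosphorylation none passed the test in either direction with edgeR or with DESeq2. Among 78 ribosomal protein genes 35 rose and none fell, a count that dropped to 17 with DESeq2 and with RLE scaling, and to 2 without the experiment as a block. RLE scaling and DESeq2 also moved the median over all genes from -0.11 to -0.2 and -0.23.

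To hold the lineage fixed, cycling and other cells were compared within experiment and marker set. Only 5 combinations held at least 3 cycling and 3 other cells: the Eomes progenitor set in experiments 1, 2, 4 and 5 and the astrocyte and stem cell set in experiment 4, with 29 cycling and 143 other cells. Of 852 genes tested, 70 were higher in cycling cells (8.22%) and 62 lower (7.28%). Raised genes include Cdca8, Hmgb2 and Tuba1b, and lowered genes include Cd24a, Tubb3 and Dcx. Leaving out experiment 2 left 299 genes tested and 33 called, and leaving out experiment 4 left 328 tested and 60 called. Without the block 54 genes were called. Combinations of 1 experiment share a sort and are not fully independent. The Eomes set of experiment 5 entered with 3 cycling and 3 other cells, so its CPM values below rest on few wells.

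The genes raised most within lineage were Cdca8 (5.27 ± 0.45), Ckap2l, a spindle protein (4.64 ± 0.44), Cenpa, the centromeric histone (4.63 ± 0.45), Nuf2, a kinetochore subunit (4.62 ± 0.42), and 2810417H13Rik, the PCNA-associated factor Pclaf (4.06 ± 0.39). Hmgb2 had a log2 fold change of 3.27 ± 0.28 (edgeR adjusted p = 4.5e-12), with 1280, 2300, 1220 and 1170 CPM in the cycling Eomes-set cells of experiments 1, 2, 4 and 5 against 207, 124, 114 and 141 CPM in the other cells of that set. In the astrocyte and stem cell set of experiment 4 it stood at 872 CPM against 147 CPM. The raised level was thus found in both sets. Of 37 replication genes 4 were tested (Rrm2, Pcna, Mcm7, Mcm6), of 52 mitosis genes 9, and these 13 genes rose. None of them reached the filter's cutoff of 208 CPM in every sum of other cells, so that they could not have entered through those sums alone, and their count supports nothing. Hmgb2 and 2810417H13Rik lay below that cutoff in every sum of other cells, so their tests are a description too. Of 19 chromatin genes tested 11 rose and none fell, and 4 of the 19 had reached the cutoff in every sum of other cells. Of all 852 genes tested 8.22% were higher and 7.28% lower.

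H2afz, a histone variant, stood at 3740, 4040, 2840 and 3180 CPM in cycling Eomes-set cells and at 496, 523, 615 and 141 CPM in the others of the set. Its log2 fold change was 2.41 ± 0.22 within lineage, and that of Hmgn2, a nucleosome-binding protein, was 1.69 ± 0.21. Both sets of values are free of overlap. H2afz lay below the filter's cutoff of 208 CPM in the other cells of experiment 5. It could not have entered the test through the sums of other cells alone. Pcna rose by 1.83 ± 0.27 on the log2 scale and Mcm6 by 1.75 ± 0.37. Ezh2, the methyltransferase of the Polycomb complex, had a log2 fold change of 1.41 ± 0.36 (edgeR adjusted p = 0.0043).

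Tubulin genes moved in opposite directions. Of 8 tubulin and stathmin genes tested, Tuba1b, Tubb4b and Stmn1 rose and Tubb2b, Tubb3 and Tubb2a fell. Tuba1b, an alpha tubulin common in dividing cells, stood at 4460, 1650, 2160 and 3630 CPM in cycling Eomes-set cells and at 248, 512, 402 and 422 CPM in the others (log2 fold change 2.22 ± 0.23 within lineage; edgeR adjusted p = 4.6e-10). Tubb3, the beta tubulin used as a neuronal marker, stood at 94.8, 389, 430 and 335 CPM against 743, 1120, 985 and 1130 CPM (-1.74 ± 0.3; edgeR adjusted p = 1.9e-05). Tubb2b stood at 995, 902, 1080 and 391 CPM against 1690, 2570, 2990 and 1830 CPM (-1.5 ± 0.22). None of these 3 genes overlaps between cycling and other cells of the set. How many of all 852 genes tested also lack overlap was not counted. Of the 852 genes 8.22% were higher and 7.28% lower. Tubb3 lay below the filter's cutoff of 208 CPM in the cycling Eomes-set cells of experiment 1. Tubb4b lay below it in the other Eomes-set cells of experiments 1, 2 and 4. Tubb4b was higher in 4 of the 5 combinations, with 391 CPM in cycling and 422 CPM in other Eomes-set cells of experiment 5. Over all cells the fold changes of Tubb3 (-0.17 ± 0.38) and Tubb2b (-0.44 ± 0.35) did not pass the test.

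The gene lowered most within lineage by the rule for named genes was Cd24a, which encodes the surface protein that the sort selected against. It stood at 0, 27.8, 105 and 0 CPM in cycling Eomes-set cells and at 413, 823, 907 and 1410 CPM in the other cells of the set (-3.77 ± 0.45 within lineage; edgeR adjusted p = 1e-08). Cd24a lay below the filter's cutoff of 208 CPM in every sum of cycling cells and above it in every sum of other cells. It passed the filter through the other cells only, so its test is a description. Basp1, a growth cone protein (-2.58 ± 0.32), Gria2, the glutamate receptor subunit GluA2 (-2.27 ± 0.28), Mapt, the microtubule protein tau (-2.21 ± 0.42), Dcx, the neuroblast protein doublecortin (-1.5 ± 0.31), and Nrep (-2.46 ± 0.36) fell as well. Dcx stood at 237, 333, 340 and 335 CPM against 785, 904, 719 and 844 CPM. For Cd24a and Dcx the groups do not overlap. Id2, an inhibitor of helix-loop-helix factors, fell by 1.34 ± 0.32. Basp1, Gria2, Mapt, Dcx, Nrep and Id2 did not reach the filter's cutoff in every sum of cycling cells either.

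**Figure D3:**
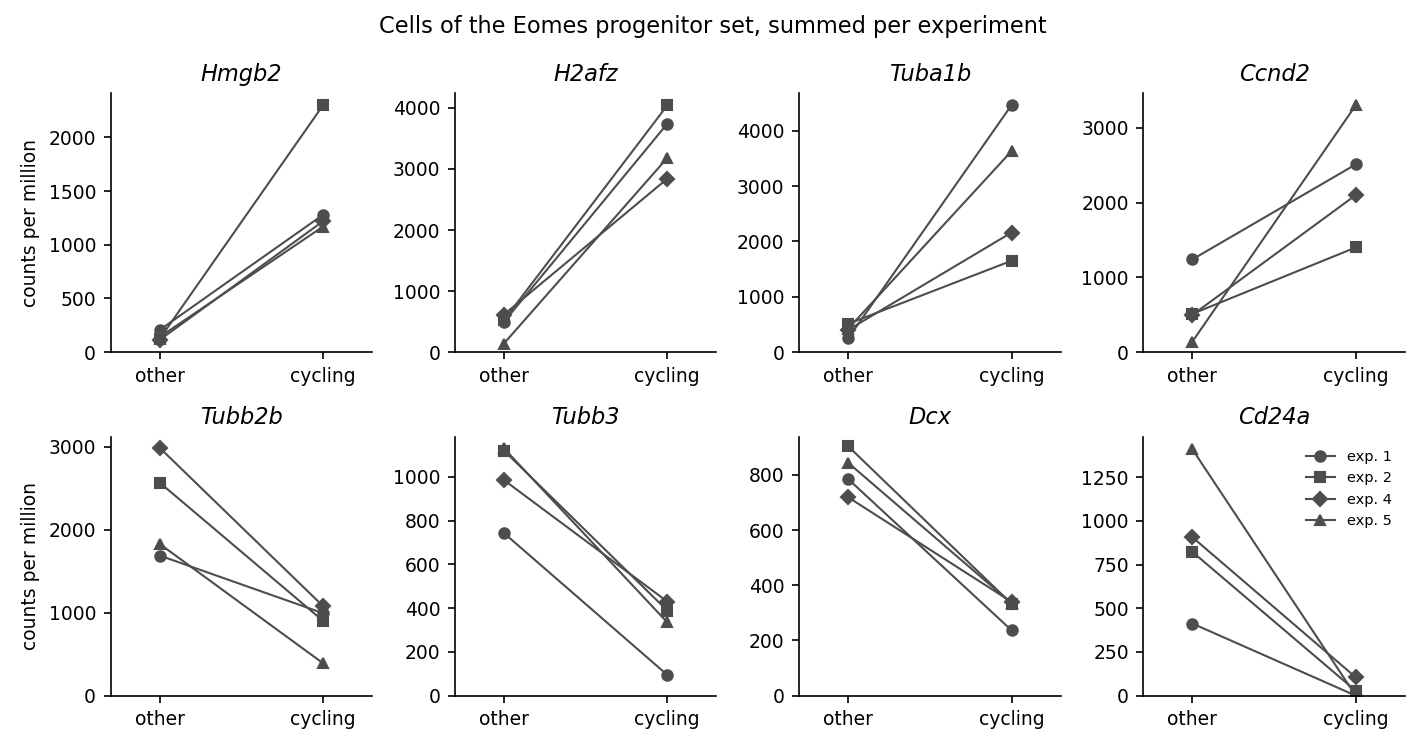
CPM of 8 genes in the summed other and cycling cells of the Eomes progenitor set, with 1 line for each of experiments 1, 2, 4 and 5. Hmgb2, H2afz, Tuba1b and Ccnd2 rise in each experiment, and Tubb2b, Tubb3, Dcx and Cd24a fall in each experiment.

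The cells of the Eomes progenitor set differed in the marker genes themselves, which are given as a description because they defined the set. Eomes was found in 83.3% of the 30 cycling and 45.8% of the 155 other cells of the set. Insm1, a zinc finger factor of intermediate progenitors, was found in 43.3% and 18.1%, and Neurog2, a proneural factor, in 20% and 6.45%. Of the other 5 markers of the set, Mfap4 was found in 30% and 23.9% and Neurod4 in 10% and 8.39%. Neurod1, a factor of later neuronal differentiation, went the other way, with 60% and 86.5%, as did Igfbpl1 with 73.3% and 82.6% and Sox11 with 93.3% and 99.4%. Of genes outside the set, chosen after their values were seen, Calb2, calretinin of immature neurons, was found in 6.67% and 34.8%, Stmn2 in 16.7% and 52.9%, and Neurod2 in 3.33% and 25.8%. The other cells of the set thus hold more cells with neuroblast genes, and how much of the differences within the set comes with that was not tested.

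A fit with a separate cycling coefficient for the Eomes progenitor set, from the same sums, covered 26 cycling and 114 other cells. It called 64 genes higher (7.51%) and 69 lower (8.1%) of 852, and DESeq2 on the same sums 65 higher and 37 lower. Without the block 58 genes were called. Leaving out experiment 2 left 33 called, leaving out experiment 4 left 60, and leaving out experiment 5 gave 215 of 2233 tested. Of 19 chromatin genes tested 10 rose. The same 4 replication and 9 mitosis genes rose, which again had not reached the filter's cutoff in every sum of other cells. Tuba1b and Tubb4b rose, and Tubb2b, Tubb3, Tubb2a and Tuba1a fell. Of 73 ribosomal protein genes none passed the test in either direction with edgeR or DESeq2, with a median of 0.02.

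Immediate early genes gave no stable call within lineage. Of all genes tested, 7.28% fell over both marker sets and 8.1% in the Eomes set. In the Eomes set Fos (-1.46 ± 0.25), Egr1, Jun and Jund fell among 6 genes tested with edgeR, and none of the 6 passed with DESeq2 or without the block. Over both marker sets none of the 6 passed with either tool, and Fos had a log2 fold change of -0.73 ± 0.31 with an edgeR adjusted p of 0.11. Of the glial homeostasis genes 4 of 12 fell over both sets, Atp1b2, Cpe, Gnao1 and Cd81, and 1 of 12 with DESeq2 or without the block. In the Eomes set alone Atp1b2 and Cpe fell, and none with DESeq2. Of the 12 homeostasis genes, 3 reached the filter's cutoff of 208 CPM in every sum of cycling cells. Atp1b2, a subunit of the glial sodium pump, stood at 62.3 CPM in cycling and 2790 CPM in other cells of the astrocyte and stem cell set of experiment 4, against 142 to 227 CPM and 165 to 422 CPM in the Eomes set.

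RNA-binding genes rose in part within lineage: 5 of 25 tested, Ran, Hnrnpa3, Hnrnpab, Hnrnpa2b1 and Hnrnpu, with no gene lowered. Of all 852 genes tested 8.22% were higher and 7.28% lower. Of the 25 genes, 11 reached the filter's cutoff in every sum of other cells. Ran stood at 1370, 1140, 1250 and 1680 CPM in cycling Eomes-set cells and at 496, 352, 404 and 141 CPM in the others of the set, without overlap (1.5 ± 0.24 within lineage; edgeR adjusted p = 5.4e-06). In the other cells of experiment 5 Ran lay below the filter's cutoff of 208 CPM. It could not have entered the test through the sums of other cells alone. Without the block 1 of the 25 genes passed. Gapdh was the only one of 4 glycolysis genes raised (0.69 ± 0.22; edgeR adjusted p = 0.027), and its call was lost when experiment 1, 2 or 5 was left out. None of 24 oxidative phosphorylation genes passed in either direction with edgeR or DESeq2. The 35 ribosomal protein genes raised over all cells had no counterpart here, where none of 73 passed with either tool and the median was 0.01.

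The D-type cyclins are given for each marker set as a description. Ccnd2 was held by 26 of the 30 cycling Eomes-set cells and 6 of the 7 cycling astrocyte and stem cell-set cells, and Ccnd1 by 5 of the 6 cycling precursor-set cells. Summed over cells, Ccnd2 stood at 2120 CPM in cycling Eomes-set cells (exact Poisson 95% interval 1950 to 2290) and 578 CPM in the others of the set (540 to 619). In the astrocyte and stem cell set it stood at 1400 CPM (1090 to 1760) against 366 CPM (339 to 394). In the precursor set it stood at 172 CPM (63.2 to 375) against 62.5 CPM (52.7 to 73.6), and the 6 counts behind it lay in 1 cell. In cycling microglia-set cells no Ccnd2 was found among 30578 transcripts, for which the exact Poisson upper limit is 121 CPM, against 32.6 CPM in other microglia-set cells. These intervals cover counting error only and do not include the spread between cells or experiments.

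Ccnd1 stood at 1660 CPM in the 6 cycling precursor-set cells (1260 to 2150) and 700 CPM in the others of the set (667 to 736). The single cells held 0, 2, 3, 4, 12 and 37 counts, so 1 Nestin-GFP cell gave 37 of the 58. Without it the 5 other cells stood at 837 CPM (518 to 1280), an interval that overlaps that of the non-cycling cells of the set. The precursor-set cell without Ccnd1 was the one with the 6 Ccnd2 counts, and it held no Pdgfra and 1 count of Olig2. In the Eomes set Ccnd1 was held by 2 of 30 cycling cells (6.96 CPM, 0.843 to 25.1) and by 7.74% of the others (11.9 CPM). In the microglia set it stood at 229 CPM (92 to 472) against 171 CPM (150 to 194), with intervals that overlap. Within lineage the test of Ccnd2 gave 1.56 ± 0.23 (edgeR adjusted p = 8e-07), with 2510, 1400, 2100 and 3300 CPM in cycling Eomes-set cells of experiments 1, 2, 4 and 5 and 1240, 512, 497 and 141 CPM in the others, which do not overlap. In the other cells of experiment 5 Ccnd2 lay below the filter's cutoff of 208 CPM. It could not have entered the test through the sums of other cells alone. No experiment held 3 cycling precursor-set cells, so the difference between lineages was not tested.

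**Figure D4:**
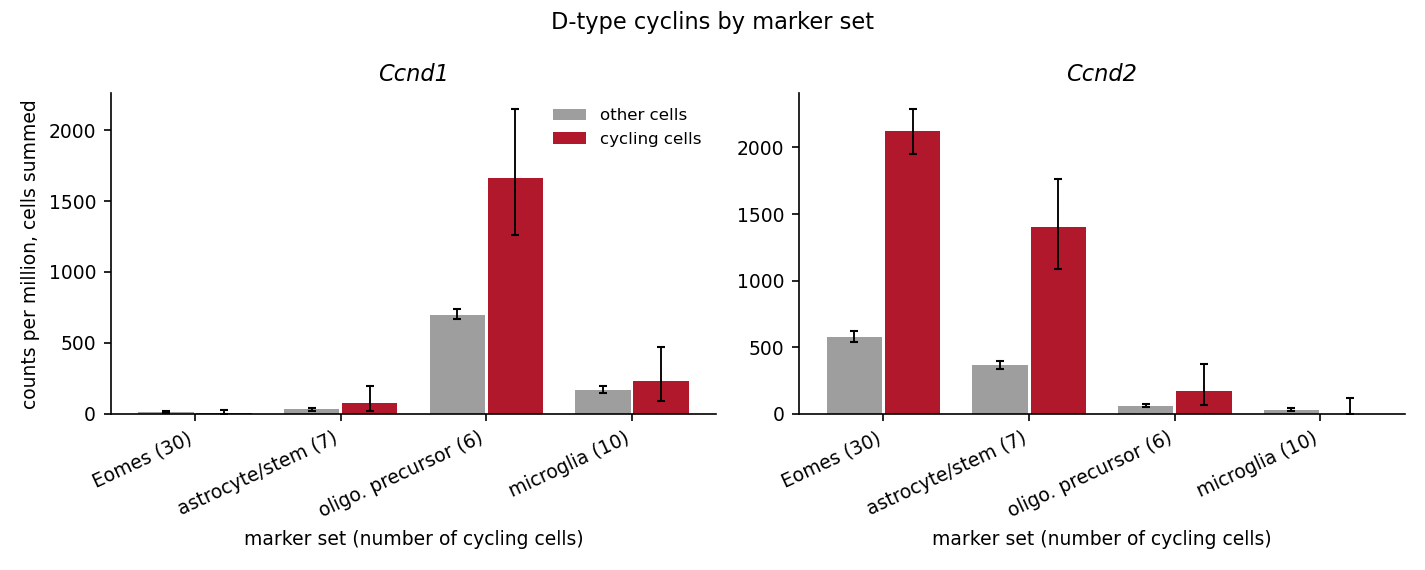
CPM of Ccnd1 (left) and Ccnd2 (right) summed over the other (grey) and cycling (red) cells of 4 marker sets, all groups of samples together, with exact Poisson 95% intervals that cover counting error only. Ccnd1 is highest in the 6 cycling precursor-set cells at 1660 CPM (837 CPM without the Nestin-GFP cell that holds 37 of the 58 counts), and Ccnd2 in the 30 cycling Eomes-set cells at 2120 CPM.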

How the data were processed

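Per the labels, SORT-seq was used, which is CEL-Seq2 on sorted plates and reads 3' ends with a cell barcode and a molecular identifier. BWA 0.6.2-r126 and mm10 are named in the submitters' processing notes; the sources used here do not name the annotation. The authors deposited for each well expected counts, that is transcript numbers estimated upstream that need not be whole, and these were rounded to whole numbers here. The authors' further deposited table holds counts plus a constant of 0.1, which was subtracted; none of its 1516615 entries above 0 exceeded the count file.

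Counts were summed per experiment (and marker set) and tested with edgeR 4.0.16 in R 4.3.3 (TMM scaling, genes kept by filterByExpr, quasi-likelihood test; genes were called at a Benjamini-Hochberg adjusted p under 0.05), with DESeq2 1.42.0 as an alternative. Gate genes were left out of all tests, and genes of the marker sets out of the tests within lineage. CPM values are per 1000000 transcripts. An experiment needed 5 cells of each kind and a combination of experiment and marker set 3. A cell was put with a set when it held at least 2 of its markers and more than of any other set. The experiment was a block because both cell groups of an experiment come from the same sort; the deviations of both groups correlated at 0.35, 0.46, 0.45 and 0.12 in experiments 1, 2, 4 and 5. On simulated counts with 4-fold changes, 137 of 168 changed genes were recovered over all cells, with 4 false calls among 7123 genes tested. The simulation used a fixed dispersion of 0.1, not matched to these data, and the same change in every experiment. Its false calls thus do not measure the error of the calls reported here.

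Members, lists and the rule for named genes were chosen with earlier results of these data known. Named were the 4 lineage markers, the 15 genes with the largest rise and 10 with the largest fall over all cells, 10 and 5 within lineage, each called, moved alike in every experiment and found in at least 10% of the higher group's cells, and up to 4 called genes of each list. Further genes of the lists, the D cyclins by set, the genes of the Eomes set and the wells left out of single values were chosen after their values were seen. Gene coordinates are of mm10. Comparisons within the precursor set, and between it and the Eomes set, could not be run. Values of some genes that the rule names are not reported here.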

Additional observations from a re-analysis of the deposited data

Results flagged for a closer look

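Of 67 groups of 4 or 5 experiments examined, 4 held a value far from the others, and chance gives about 1 in 20. The share of cycling cells was 16.2% in experiment 4, against 2.65% to 4.66% in the other 4 experiments. The log2 ratio of Tubb2b between cycling and other cells was 0.886 in experiment 1, against -0.871 to -0.74 in experiments 2, 4 and 5. That of Cd81 was -2.37 in experiment 5, against -1.12 to -1.05 in experiments 1, 2 and 4. Within the Eomes progenitor set, that of Ran was 3.57 in experiment 5, against 1.47 to 1.69 in the other 3. Experiment 5 holds 5 cycling cells, 3 of them in the Eomes set. The Eomes set of experiment 5 holds only 3 other cells, in which Ran stood at 141 CPM.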

How the results depend on the processing

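Over all cells the count of 1074 genes became 1710 with no filter on low counts, 574 without the replicate block, 636 with a gate sum of at least 1, 272 from the deposited table of equal depth and 634 without mixed cells, and 734 to 1152 with 1 experiment left out. Within lineage the 132 genes became 305, 54, 56 and 12 under the first 4 of these, 58 with the old and Nestin-GFP libraries added, 463 with at least 5 cells per combination, 50 with lineage set by 1 marker gene, and 33 to 187 with 1 experiment left out; the run without mixed cells could not be fitted. In the Eomes progenitor set the 133 genes became 58 without the block, 17 from the deposited table, and 33 to 215 with 1 experiment left out. Higher genes made up 41% of the calls over all cells, 27.5% with no filter and 30.5% from the deposited table. Within lineage they made up 53%, with 68.5% without the block, 78% by 1 marker gene, 66.7% from the deposited table, 41.4% with the old and Nestin-GFP libraries, and 41.7% to 64.2% with 1 experiment left out. In the Eomes set they made up 48.1%, with 63.7% by DESeq2, 63.8% without the block and 41.7% to 63.6% with 1 experiment left out. A rule of at least 2 different gate genes, chosen after seeing the data, gave 1440, 133 and 130 genes.

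Of the named genes called over all cells, 895 values under the alternatives were called in the same direction and 31 were not called. Within lineage these were 439 and 74, with 1 reversed, and in the Eomes set 254 and 26. Alternatives in which a gene was not tested are not in these counts. Within lineage, for example, Nuf2 had 9 values and Ccnd2 had 17. The mean log2 ratio of transcripts per cell was -0.13, and 0.08 with a gate sum of at least 1, 0.37 relative to spike-ins, 0.25 within the Eomes progenitor set and 0.13 without experiment 4 (-0.27 to 0.13 with 1 left out). The Hopx share went from -10.4 to 3.46 points with the count files. Values that changed sign were not called: over all cells Tubb3 was 0.14 without experiment 2 and 0.22 without experiment 4 (-0.48 to 0.22 with 1 experiment left out), 0.04 with a gate sum of at least 1, 0.07 from the deposited table, 0.19 without mixed cells and 0.00 with the old and Nestin-GFP libraries; Dcx was -0.18 without experiment 1, without experiment 5 (-0.18 to 0.87 with 1 experiment left out) and with at least 10 cells per experiment, -0.41 with a gate sum of at least 3 and -0.32 with at least 2 gate genes; Gapdh was -0.14 with a gate sum of at least 1 and -0.02 from the deposited table. Within lineage the called Gapdh was -0.07 with a gate sum of at least 1. The causes were not tested. With 69 members, and 5 to 22 in each tested experiment, small sets and genes of few transcripts could not be resolved.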
